A study of Mus musculus with 18 samples.

Results

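The exit of control ESCs (Ctrl) from 2i + LIF was described between d0 and d4 of neural differentiation (ND), with 6 of the 18 RNA-seq libraries of the series. These were the 3 libraries of Ctrl cells at d0 and the 3 at d4, and all 10965 genes of the deposited table were compared. The authors had already removed genes that did not reach 5 TPM in 3 samples, and the 20% that varied least, so every share of genes below is of a set chosen for level and variability across these groups. Ctrl ESCs are mouse cells of the strain CD1 with the genotype Zeb2 fl/fl, in which loxP sites flank both Zeb2 alleles. The labels call d0 cells ground-state ESCs and d4 cells multipotent progenitors. At d0 the cells grew without feeders in N2B27 with LIF and 2 inhibitors. These were the MEK inhibitor PD0325901 and the GSK3 inhibitor CHIR99021, at 0.4 and 1 µM by the labels and at 1 and 3 µM by the study's methods. They were then kept in suspension as embryoid bodies (EBs) in medium with 15% serum until d4, when that medium gave way to N2B27 with 500 nM retinoic acid. The study describes the sequenced d4 cells as a stage grown with serum. It does not state outright whether they were taken before or after this change. The other groups are Ctrl cells at d6 and Zeb2 KO cells (Zeb2 -/-, of the same strain) at d0, d4 and d6, again with 3 libraries each, and they are used only for comparison. Which cell line was sequenced is not given, and nothing in the labels says that libraries came from separate lines. EBs mix cell types, and in such bulk RNA fewer cells of a type cannot be told apart from less RNA per cell.

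Naive pluripotency is the state of the preimplantation epiblast. In culture it is held by LIF, which signals through STAT3, by blocking the MEK-ERK cascade downstream of FGF, and by inhibiting GSK3, which stabilises β-catenin. When these inputs end, ESCs normally lose the naive factors, pass through a formative state like the early postimplantation epiblast and become responsive to lineage cues such as Nodal, BMP, Wnt and retinoic acid.

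The reads on the 10965 genes numbered 11277127 to 14796961 per library at d0 and 14340469 to 15617675 at d4. Expression is given in TPM, a unit that corrects for transcript length and library size. A change is the difference of mean log2(TPM + 1), d4 minus d0, with its standard error, which is smaller than the true fold where TPM is near or under 1. The limit for a call was an adjusted p of 0.01 (limma, Benjamini-Hochberg), which 67.4% of all genes passed. By this rule 4945 genes were higher at d4 (45.1%) and 2443 lower (22.3%). Beyond 2-fold, 2330 were higher (21.2%) and 707 lower (6.45%). The median change of all genes was 0.26; whether this shift lies in the scale or in the cells was not tested. With each library divided by its median-ratio size factor, called rescaling here, it was -0.02, with 3601 genes called higher (32.8%) and 3683 lower (33.6%). No called gene turned its direction by this rescaling. The median gene among those higher beyond 2-fold went from 3.86 to 17.8 TPM and among those lower from 38.0 to 12.1 TPM. In 78.5% of all genes the 3 libraries of d0 and the 3 of d4 did not overlap, 51% with d4 higher.

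**Figure D1:**
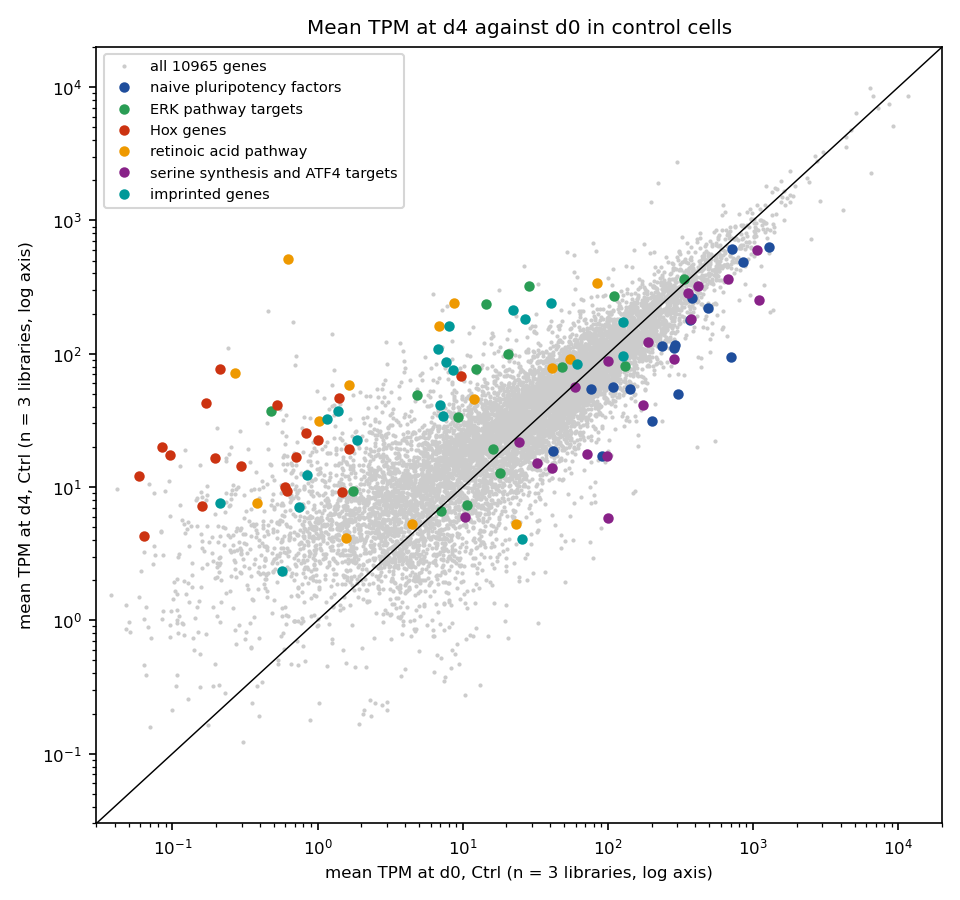
Mean TPM of each gene in Ctrl cells at d0 (horizontal, log axis) and at d4 (vertical, log axis), with 3 libraries each. Grey points are all 10965 genes, coloured points the members of 6 lists, and the line marks equal levels. All 19 Hox genes lie above the line and the 17 naive factors below it. Only 1 of the 19 reached 5 TPM in 3 libraries outside Ctrl d4 and d6, so the limit on TPM favoured this position.

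The genes of 4 chromosomes stood apart, 3 of them upward and 1 downward, which bears on every member they carry. The median change was 0.60 for the 560 genes of chromosome 6, 0.66 for the 668 of chromosome 8 and 0.73 for the 440 of chromosome 12. On the other 17 chromosomes compared it lay between -0.03 and 0.43. Relative to all genes of the same library, chromosome 8 had a median of -0.19 to -0.16 in the 3 d0 libraries and of 0.23 in each d4 library. The d6 libraries of Ctrl were back at -0.24 to -0.22, while Zeb2 KO libraries lay at 0.20 to 0.22 at d0 and 0.19 to 0.21 at d4. At d6 the KO libraries were at -0.26 to -0.24, as low as those of Ctrl. Chromosome 12 ran from between -0.24 and -0.23 at d0 to between 0.23 and 0.24 at d4. Its genes beyond 30 Mb had a median change of 0.82 and its first 30 Mb one of 0.40. Chromosome 17 moved the other way, from between 0.15 and 0.20 at d0 to between -0.15 and -0.14 at d4, and the median change of its 576 genes was -0.03. The cause of these chromosome-wide shifts was not tested. Centring every library on its chromosome medians was added once the data had been seen. It left 4953 genes called higher and 2262 lower. Values after it are given for some of the genes it moves by over 1.5 times or whose call it ends. They are also given for some others on these chromosomes. All other values are without centring, also those of genes on these chromosomes.

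**Figure D2:**
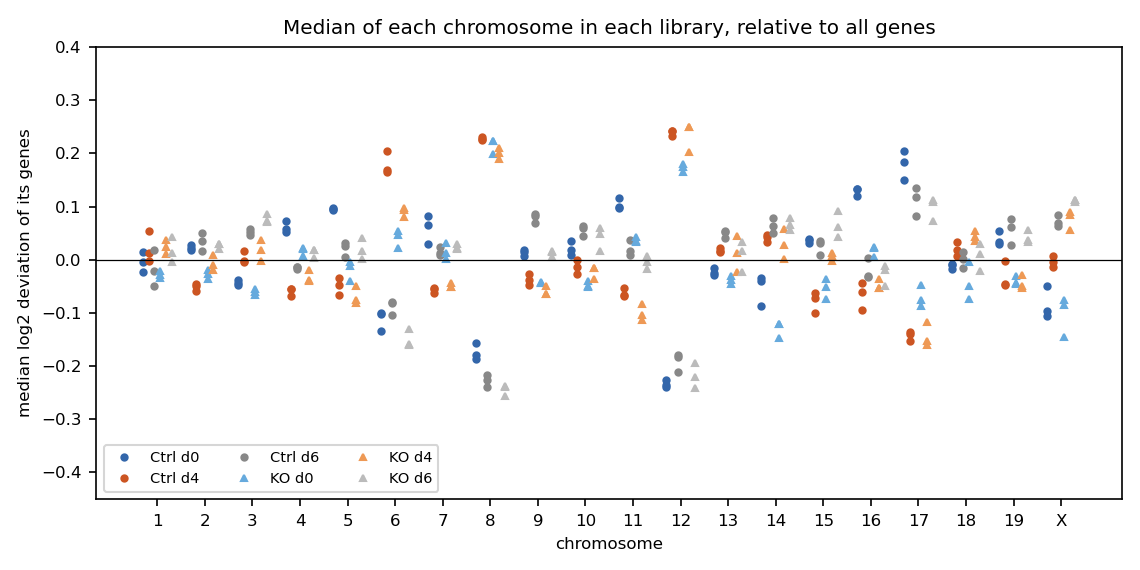
Median deviation of each chromosome's genes (vertical, log2(TPM + 1), relative to the median of all genes) in each library. Every point is 1 library, circles are Ctrl and triangles Zeb2 KO. On chromosomes 6, 8 and 12 the 3 Ctrl d0 libraries lie below 0 and the 3 Ctrl d4 libraries above it.

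The naive factors fell. Of 17 members of that list in the table, 16 were called lower and none higher, with a median change of -1.14. Fbxo15, at 712 ± 55.4 TPM (SD, n = 3) at d0 and 608 ± 104 TPM at d4, was not called (-0.24, adjusted p = 0.0991), and it too was called lower after rescaling. Klf4, a Krüppel-like factor downstream of LIF-STAT3, was at 207, 197 and 202 TPM in the d0 libraries and 31.8, 37.05 and 25.6 TPM in the d4 libraries. The d4 libraries did not overlap with those of d0, whose mean was 6.41 times higher, a change of -2.66 ± 0.13 (adjusted p = 4.60e-11). Tfcp2l1, a STAT3 target that sustains self-renewal, had the largest fall of the list (-2.91, from 708 ± 4.201 TPM (SD, n = 3) to 93.9 ± 13.5 TPM). Fgf4, the ligand that drives ERK in ESCs, and Tbx3, a T-box factor of the naive network, changed by -2.60 and -2.35. The falls of Dppa3 (-1.38), Prdm14 (-1.37), a repressor of de novo methylation genes, and Nr0b1 (-1.31) lay near the middle of the list.

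Nanog was at 1247, 1329.9 and 1257 TPM in the d0 libraries and 729.8, 629 and 534 TPM in the d4 libraries. This core factor was lower in every d4 library, with a change of -1.03 ± 0.12 (adjusted p = 7.79e-07), but it kept a high level. Zfp42 (Rex1), a marker of the naive state, went from 851 ± 44.9 TPM (SD, n = 3) to 492 ± 44.2 TPM (-0.79). Esrrb, an orphan nuclear receptor held up by GSK3 inhibition, had one of the smallest falls, at -0.54, from 378 ± 16.6 TPM (SD, n = 3) to 261 ± 31.7 TPM. Nanog, Zfp42 and Esrrb lie on chromosomes 6, 8 and 12. After centring of the chromosomes their changes were -1.32, -1.19 and -1.01. At d6 their means were 112, 95.4 and 22.9 TPM, and on the log2 scale the step from d4 to d6 was the larger for each of them. For Klf4 the d6 mean was 11.03 TPM.

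The genes of general pluripotency split. Of 16 in the table, 10 were called lower and 4 higher, with a median change of -0.43. Pou5f1 (Oct4), the POU factor of the core circuit, was at 1165, 1127 and 1125 TPM in the d0 libraries and 525, 436 and 397 TPM in the d4 libraries. All d4 values lay below all d0 values (-1.34 ± 0.10, adjusted p = 7.71e-09). Sox2, its partner, changed by only -0.36, from 1085 ± 66.4 TPM (SD, n = 3) to 843 ± 51.9 TPM. Dppa5a had the largest fall (-1.79), and Tdgf1, the Nodal co-receptor Cripto, changed by -1.08. Against this, Lin28a, which blocks let-7 maturation, was at 52.8, 51.9 and 53.3 TPM in the d0 libraries and 516, 580.02 and 639.5 TPM in the d4 libraries. It rose in every library, by 3.43 ± 0.12 (adjusted p = 7.45e-13). Its paralog Lin28b rose by 2.28 and Utf1 by 1.63, while Dppa4 (0.45) was no longer called after rescaling (0.15, adjusted p = 0.122). Tcea3, a transcription elongation factor, fell by 0.61.

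**Figure D3:**
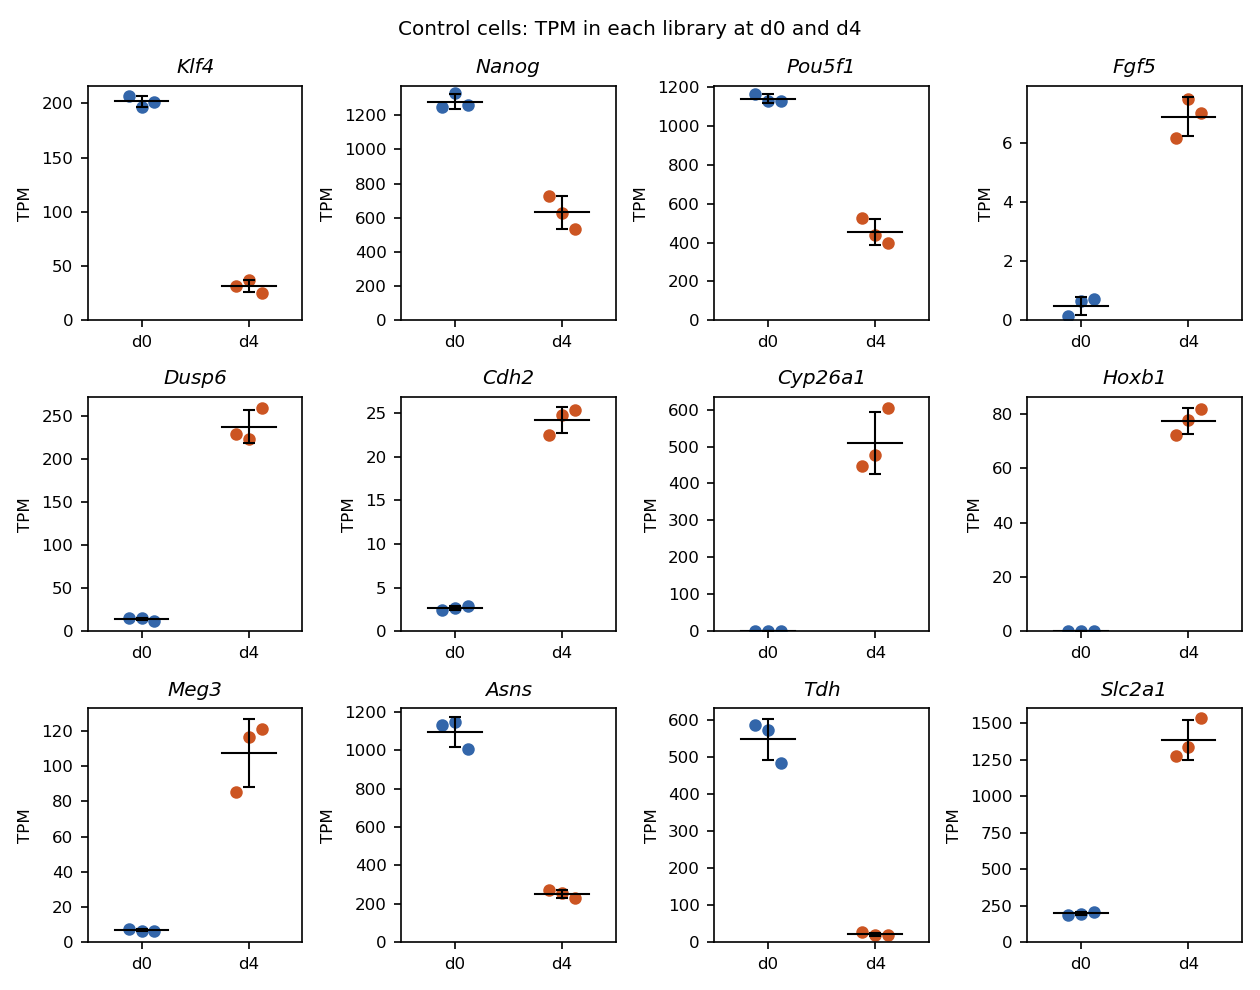
TPM (linear vertical axes from 0) of 12 genes in each Ctrl library at d0 (blue) and d4 (orange). Points are single libraries, horizontal lines are means and error bars are SD (n = 3). In no gene do the points of the 2 days overlap.

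The pathways that 2i + LIF holds or blocks were read from their targets. Of 11 members of the LIF-STAT3 list, 7 were called lower and 1 higher (median -0.72). Socs3, the feedback inhibitor induced by STAT3, fell by 1.18, Bcl3 by 1.88 and Stat3 itself by 1.05. The receptor subunits were less altered, with Lifr at -0.40 (adjusted p = 0.0109) and Il6st (gp130) at -0.08 (adjusted p = 0.357). Gadd45g, a growth arrest gene, was the member called higher (1.34). After quantile normalization its change was 0.60 (adjusted p = 0.027). Junb (-0.72, chromosome 8) and Pim1 (-0.41, chromosome 17) were called lower. After centring Junb was at -1.12 and Pim1 was not called (-0.09, adjusted p = 0.192).

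Targets of ERK, the pathway blocked by PD0325901, moved the other way. Of 16 in the table, 10 were called higher and 1 lower, with a median of 1.52. Dusp6, a phosphatase that dephosphorylates ERK, was at 15.7, 15.05 and 12.6 TPM in the d0 libraries and 229, 223 and 259 TPM in the d4 libraries. Its mean at d4 was 16.4 times that at d0 (3.95 ± 0.14, adjusted p = 6.94e-13). Spry4, a Sprouty inhibitor of receptor signalling, had the largest rise of the list, from 0.481 ± 0.244 TPM (SD, n = 3) to 37.4 ± 3.28 TPM (4.71). Dusp4 rose by 3.45, Phlda1 by 3.15, Dusp5 by 2.55 and Spred1 by 2.23. These are feedback inhibitors, apart from Phlda1. The exception was Etv5, an ETS factor also tied to the naive state, which fell by 0.69, while its relative Etv4 rose by 1.90. The immediate-early genes Egr1 (-0.01), Fos (0.05) and Ier2 (0.13) were not called, and Egr1 varied among the d0 libraries (SD of 15.3 around a mean of 17.9 TPM).

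Among 10 targets of Wnt and β-catenin, the branch held active by CHIR99021, 6 were called lower and 2 higher (median -0.58). Axin2, the classical feedback target, was at 26.6, 23.9 and 20.8 TPM in the d0 libraries and 8.97, 10.6 and 11.5 TPM in the d4 libraries and changed by -1.12 ± 0.18 (adjusted p = 2.50e-05). Sp5 fell by 2.54, Cdx1 by 1.62 and Notum, a Wnt deacylase, by 1.54. Both members called higher lie on the chromosomes that stood apart. Sp8, a zinc finger factor of chromosome 12, rose by 3.40 and by 2.93 after centring. Nkd1, on chromosome 8, had a change of 0.86, which was not called after centring (0.46, adjusted p = 0.0267).

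Genes of the postimplantation epiblast did not rise as a block. Of 16 members, 9 were called higher and 4 lower, where 45.1% of all genes were called higher and 22.3% lower. The median of 0.67 became -0.10 after quantile normalization. Fgf5, the classical marker of the formative epiblast, was at 0.154, 0.642 and 0.715 TPM in the d0 libraries and 6.18, 7.49 and 7.04 TPM in the d4 libraries. It rose (2.41 ± 0.21, adjusted p = 2.65e-08) to a low level, from 1 to 6 reads per d0 library. Otx2, a homeobox factor of the formative state, went from 3.96 ± 0.221 TPM (SD, n = 3) to 6.59 ± 1.29 TPM, with a change of 0.60 that was lost after rescaling (0.35, adjusted p = 0.0601) and of -0.17 after quantile normalization. Pou3f1 (Oct6) had a change of 0.64, which was 0.37 (adjusted p = 0.0295) after rescaling and -0.03 after quantile normalization. Both remained under 10 TPM at d4. In contrast Sox4 (4.68), Sox3 (3.96) and Sall2 (3.25), which these cells share with early neural cells, had the largest rises of the list. Foxd3, a forkhead factor, fell by 2.57, Zic5 by 1.12 and Zic2 by 0.34.

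Of 11 DNA methylation enzymes, 5 were called higher and 4 lower, where 45.1% of all genes were called higher and 22.3% lower. The methyltransferases that set new methylation differed: Dnmt3a rose by 1.82 (1.35 after centring, chromosome 12) and its cofactor Dnmt3l by 2.03. Dnmt3b was at 46.1, 37.1 and 41.4 TPM in the d0 libraries and 32.97, 42.5 and 46.4 TPM in the d4 libraries. These libraries overlapped, with a change of -0.04 ± 0.15 (adjusted p = 0.818). Dnmt1, the maintenance enzyme, had a change of 0.10 (adjusted p = 0.112) and was called lower after rescaling (-0.20, adjusted p = 8.08e-04). Its recruiter Uhrf1, on chromosome 17, fell by 0.57 (-0.25 after centring). Of the dioxygenases that oxidise methylcytosine, Tet1 fell by 0.99 and Tet2 by 1.17, whereas Tet3 rose by 2.09.

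Methylation-sensitive germline genes had no common direction, with 6 of 17 called higher and 6 lower. Over all genes these shares were 45.1% and 22.3%. Rhox5, an X-linked homeobox gene, was at 1328, 1347 and 1443 TPM in the d0 libraries and 221, 205 and 209 TPM in the d4 libraries. It lost the most (-2.69 ± 0.08, adjusted p = 2.38e-13), followed by Tex19.1 (-1.92) and Tex101 (-1.56). Dmrt1 (2.29), Tdrd1 (1.68) and Ddx4 (Vasa, 1.26) rose. Genes of the two-cell-like state, which normally mark a rare fraction of ESCs, were higher in 9 of 10 members, with a median of 2.91. Of these 10, 7 reached 5 TPM in 3 libraries outside Ctrl d4 and d6, so the limit on TPM favoured rises among the rest. Zscan4d, of a family that shares near-identical copies and whose reads may be split between them, was at 3.602, 3.97 and 3.36 TPM in the d0 libraries and 59.3, 42.3 and 69.03 TPM in the d4 libraries. Every d4 value exceeded every d0 value (3.61 ± 0.33, adjusted p = 5.37e-08). Usp17la rose by 3.70 and Zscan4c by 3.64, and Eif1a was the member that fell (-0.46).

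The largest rise in the table was that of Cyp26a1 (chromosome 19, 37697798 to 37701536 of GRCm38), the enzyme that degrades retinoic acid and one of its most direct targets. It was at 0.674, 0.481 and 0.714 TPM in the d0 libraries and 448, 476 and 604 TPM in the d4 libraries. The d0 values rest on 2 to 4 reads per library, and the change was 8.29 ± 0.16 (adjusted p = 1.68e-15). Of 14 genes of the retinoic acid pathway, 12 were called higher and 1 lower, with a median of 2.32. The receptor Rarb, itself a direct target, was at 1.496, 1.69 and 1.77 TPM in the d0 libraries and 53.2, 61.1 and 61.5 TPM in the d4 libraries and changed by 4.49 ± 0.17 (adjusted p = 1.76e-12). The other receptors Rara (0.92) and Rarg (0.72) rose by less. Stra6, which takes up retinol, rose by 5.83, Stra8 by 4.64, and the reductase Dhrs3 by 3.99. The binding proteins Crabp2 (4.36) and Crabp1 (2.01) also rose. Their d4 means of 163 and 342 TPM were followed by 2559 and 3296 TPM at d6. Aldh1a2, which makes retinoic acid, was the member that fell (-1.98, from 23.4 ± 3.95 TPM (SD, n = 3) to 5.26 ± 1.45 TPM). Rdh10, which acts a step before it, was not called (0.19, adjusted p = 0.198). The study describes the d4 cells as grown with serum, and the source of any retinoic acid they met was not tested.

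Receptors for retinoic acid bind direct repeats of a short half-site. The stretches below are shown because they hold such a repeat just before the start of the genes with the first and the fourth largest rise of the pathway. They are RefSeq promoter sequences of build GRCm38.p6, written 5′ to 3′ on the gene's strand, with the repeat in capitals. The window searched was the 250 bases before each start, on both strands, for 2 half-sites (each with the letters AGGTCA, the letters AGTTCA, the letters GGTTCA or the letters GGGTCA) with 5 bases between them.
Cyp26a1, chr19:37697648-37697797, plus strand: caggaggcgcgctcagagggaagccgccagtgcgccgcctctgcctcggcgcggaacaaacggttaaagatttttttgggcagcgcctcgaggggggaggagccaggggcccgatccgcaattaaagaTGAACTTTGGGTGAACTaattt
Rarb, chr14:16575487-16575636, minus strand: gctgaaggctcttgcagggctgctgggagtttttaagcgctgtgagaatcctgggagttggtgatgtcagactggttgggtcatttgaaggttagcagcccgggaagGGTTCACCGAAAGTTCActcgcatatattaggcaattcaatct
The repeat began 32 bases before the RefSeq start of Cyp26a1 (37697808, downstream of the GENCODE start given above), where it reads on the opposite strand, and 53 bases before that of Rarb. It occurred in 29 of 32851 promoters (0.0883%), or 28 of 27025 genes, and in 2 of the 11 genes of the pathway that had an entry. A match is a description of the letters, not of binding.

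Hox genes, which pattern the body axis and are opened in order by retinoic acid, were higher at d4. Of 23 listed, 19 were in the table, and all of these were called higher and beyond 2-fold, with changes from 2.04 to 6.01 and a median of 3.57. Only 1 of the 19 reached 5 TPM in 3 libraries outside Ctrl d4 and d6, so the limit on TPM let them in through groups where they are high, and the count cannot be read as a result. Together they summed to between 19.3 and 20.4 TPM in the d0 libraries and between 427 and 526 TPM in the d4 libraries. Hoxb1, an anterior member at the 3′ end of its cluster, was at 0.333, 0.198 and 0.11 TPM in the d0 libraries and 72.2, 77.8 and 81.8 TPM in the d4 libraries. The d0 values rest on 0 to 3 reads, and the change was 6.01 ± 0.12 (adjusted p = 1.85e-15). Hoxb8 (5.19) and Hoxa5 (4.80) followed. The rise was not limited to the anterior members, and Hoxb9, a posterior one, was at 19.3 TPM at d4. Of the 19, 6 lie on chromosome 6, and the 13 elsewhere had a median of 3.60.

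**Figure D4:**
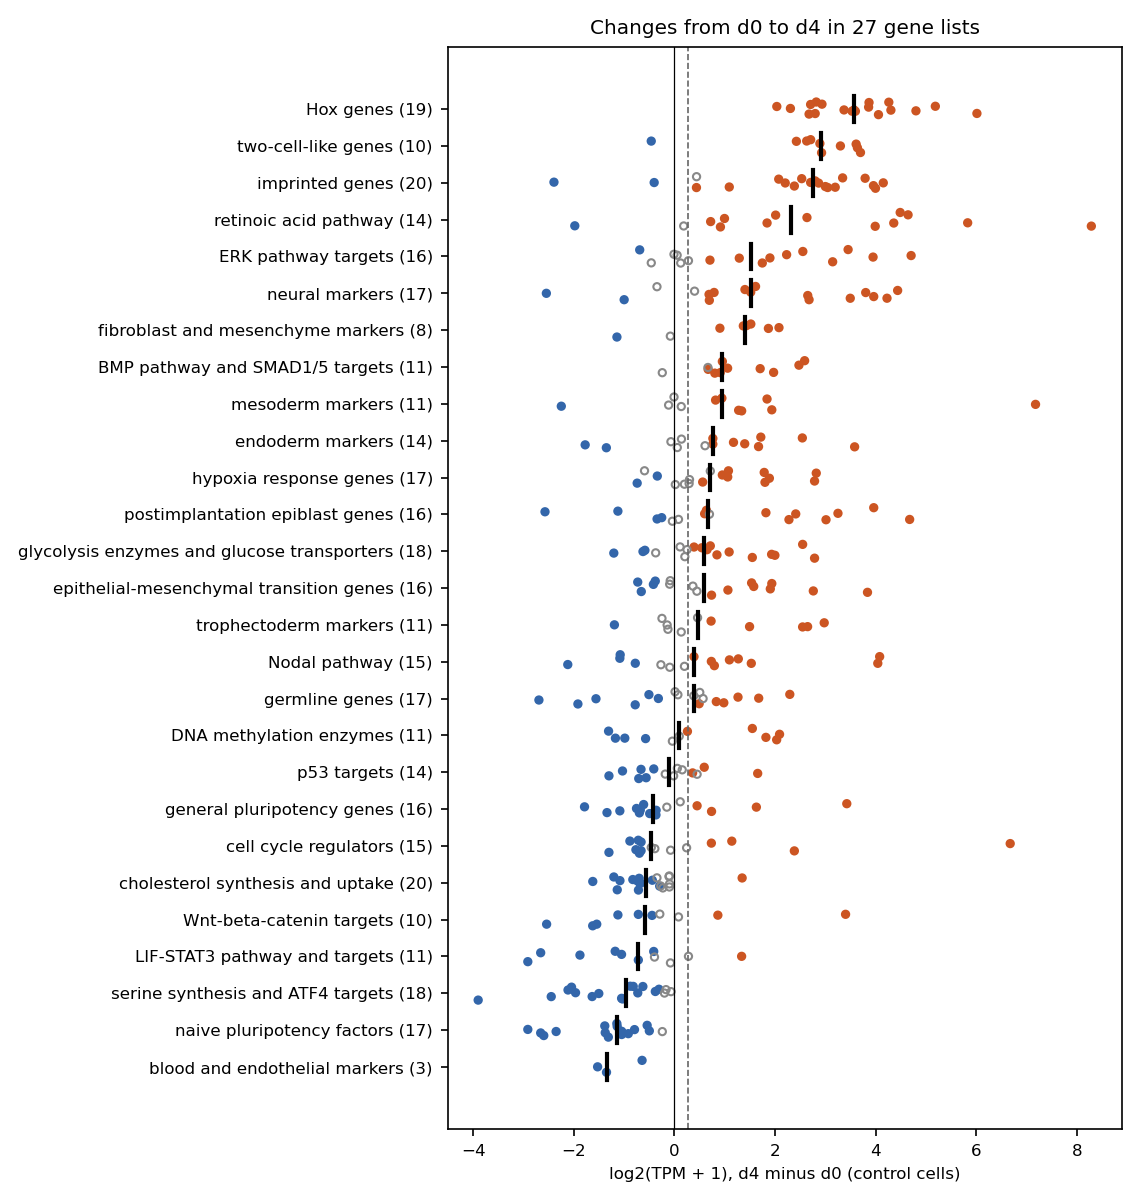
Change from d0 to d4 (horizontal, log2(TPM + 1)) of each member of 27 gene lists in Ctrl cells, with the number of members in the table in brackets. Filled points were called higher (orange) or lower (blue), open points were not called, black bars are list medians and the dashed line is the median of all genes (0.26). Hox genes have the highest median, 3.57, and among lists of 10 or more members the naive factors have the lowest, -1.14. Only 1 of the 19 Hox genes reached 5 TPM in 3 libraries outside Ctrl d4 and d6. The limit on TPM thus favoured their rank.

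Neural markers rose in 13 of 17 members and fell in 2 (median 1.52). Only 10 of the 17 reached 5 TPM in 3 libraries outside Ctrl d4 and d6, so the limit on TPM favoured rises in this count. Sox1, the earliest neuroectodermal SOX factor, was at 3.16, 3.71 and 4.78 TPM in the d0 libraries and 92.03, 99.99 and 122 TPM in the d4 libraries and changed by 4.44 ± 0.16 (adjusted p = 1.14e-12). After centring of chromosome 8 the value was 4.04. Irx3, of the same chromosome, rose by 4.23 (3.82 after centring). Sox3 is counted above. Pax6, a paired-box factor of neural progenitors, was at 0.589, 0.646 and 0.609 TPM in the d0 libraries and 17.6, 16.4 and 17.7 TPM in the d4 libraries and rose by 3.50. Zfp521, which drives neural entry, rose by 2.65, Gbx2, of the hindbrain, by 1.403 and Neurog1 by 1.61. Nes (nestin) fell by 1.00 and the homeobox gene Nkx6-2 by 2.54. Tubb3, a tubulin of neurons, lies on chromosome 8 and was not called without centring (-0.35, adjusted p = 0.0158).

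Markers of other lineages were read to see which cells the EBs may have held. Of the mesoderm list, 11 of 20 members were in the table. Of these, 7 were called higher and 1 lower (median 0.94), where 45.1% of all genes were called higher and 22.3% lower. Only 5 of the 11 reached 5 TPM in 3 libraries outside Ctrl d4 and d6, so the limit on TPM favoured rises in this count. The summed level of the 11 was 27.5 to 37.5 TPM in the d0 libraries and 223 to 265 TPM in the d4 libraries. Meox1, a homeobox gene of somites, was at 0.536, 0.128 and 0.711 TPM in the d0 libraries and 185, 209 and 229 TPM in the d4 libraries, the second largest rise of all (7.18 ± 0.20, adjusted p = 9.13e-14). The next, Twist1, reached only 12.1 TPM (1.94), and Gsc fell by 2.25. Eomes, at 4.04 ± 1.24 TPM (SD, n = 3) at d0 and 3.62 ± 0.944 TPM at d4, was not called (-0.11, adjusted p = 0.643).
Of 14 endoderm markers, 8 were called higher and 2 lower, where 45.1% of all genes were called higher and 22.3% lower. Only 8 of the 14 reached 5 TPM in 3 libraries outside Ctrl d4 and d6, which favoured rises in this count. The list median of 0.76 was -0.07 after quantile normalization, and the summed level of the list was 213 to 224 TPM at d0 and 216 to 259 TPM at d4. The members called lower were the matrix genes Sparc (-1.77, from 153 ± 7.76 TPM (SD, n = 3) to 44.3 ± 5.42 TPM) and Lama1 (-1.35, from 44.9 ± 2.03 TPM (SD, n = 3) to 17.02 ± 1.23 TPM). Col4a1, a basement membrane collagen, rose by 3.58 (3.18 after centring), Dab2 by 2.54 and Foxa2 by 1.72. Foxa2, Gata6 and Gata4 were at 3.42, 3.31 and 5.24 TPM at d4, and the yolk sac products Afp and Apoa1 at 0.211 and 0.32 TPM. Of the trophectoderm list, 5 of 11 were called higher and 1 lower, near the 45.1% of all genes called higher. The list median was -0.21 after quantile normalization, and only 6 of the 11 reached 5 TPM in 3 libraries outside Ctrl d4 and d6. Its members called higher were keratins (Krt18 2.98, Krt19 2.65, Krt8 2.55 and Krt7 0.73) and Gata3 (1.49). Krt7 lost its call after rescaling (0.51, adjusted p = 0.0213), while Gata2 fell by 1.19. Of 14 blood and endothelial markers only 3 were in the table. All 3 already reached 5 TPM in each of the 3 Ctrl d0 libraries and fell by d4, among them Pecam1 (-1.53). Fibroblast markers were called higher in 6 of 8 members and lower in 1, and only 5 of the 8 reached 5 TPM in 3 libraries outside Ctrl d4 and d6. Their summed level was at most 18.99 TPM in a d0 library and 49.7 to 56.5 TPM in the d4 libraries. The part of such cells in the other changes was not tested.

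Nodal pathway genes were called higher in 8 of 15 members and lower in 4, not far from the 45.1% of all genes called higher and 22.3% called lower. Lefty1, an extracellular Nodal antagonist induced by the pathway, was at 19.95, 30.6 and 28.3 TPM in the d0 libraries and 489.6, 448 and 425 TPM in the d4 libraries. It rose by 4.08 ± 0.12 (adjusted p = 1.94e-13). Lefty2, the adjacent antagonist, was at 133 ± 21.7 TPM (SD, n = 3) at d0 and 126 ± 22.7 TPM at d4 and was not called (-0.09, adjusted p = 0.521). The ligand Nodal had a change of -0.27 (adjusted p = 0.0148), and the convertase Pcsk6 fell by 2.12. The receptors Acvr2b (1.27) and Acvr2a (1.09) and the effector Smad3 (1.53) rose. In the BMP branch, 9 of 11 members were called higher and none lower (median 0.95). The targets Id1 (2.59) and Id2 (2.48) led, and the ligands Bmp4 and Bmp7 rose by 1.97 and 1.71.

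Of 16 genes of epithelial-mesenchymal transition, 8 were called higher and 4 lower, where 45.1% of all genes were called higher and 22.3% lower. Cdh1 (E-cadherin) fell by 0.38, from 398 ± 6.21 TPM (SD, n = 3) to 306 ± 6.19 TPM, and Cdh2 (N-cadherin) rose by 2.76, from 2.72 ± 0.228 TPM (SD, n = 3) to 24.2 ± 1.48 TPM. Cdh1 lies on chromosome 8, and its change was -0.78 after centring and -0.68 after rescaling. E-cadherin mRNA was thus still the more abundant at d4. Epithelial and mesenchymal factors rose side by side: Esrp1, an epithelial splicing factor, by 3.84 and Cldn7 by 1.91, and Twist1 by 1.94, Snai2 by 1.58 and Snai1 by 1.54. Epcam lies on chromosome 17, whose genes moved downward, and without centring it was just short of the call (0.45, adjusted p = 0.0107). Zeb2 itself, the gene the study deletes, was at 0.138, 0.123 and 0.128 TPM in the d0 libraries and 1.23, 1.39 and 1.47 TPM in the d4 libraries. These values come from 13 to 19 reads at d0 and from 173 to 193 at d4, with a change of 1.06 (adjusted p = 4.62e-07), or 0.38 (adjusted p = 0.0122) after quantile normalization. Zeb1, its paralog, was not called (0.37, adjusted p = 0.0159).

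The metabolic programme changed as well. The largest fall in the table was that of Tdh, threonine dehydrogenase, on which mouse ESCs depend for glycine and one-carbon units. It was at 586, 572 and 484 TPM in the d0 libraries and 27.3, 19.06 and 19.5 TPM in the d4 libraries, with a mean 24.9 times higher at d0 (-4.59 ± 0.14, adjusted p = 1.51e-13). The processed pseudogene Gm13929 (-4.29) was also among the 15 largest falls. Both enzymes of transsulfuration, Cth (-3.90) and Cbs (-3.56), were there too. Targets of the amino acid response factor ATF4 and genes of serine synthesis fell in 15 of 18 members and rose in none (median -0.95), and all 18 were called lower after rescaling. Asns, asparagine synthetase, was at 1132, 1146 and 1006 TPM in the d0 libraries and 270.3, 255 and 232 TPM in the d4 libraries. Its d0 and d4 values lay far apart (-2.11 ± 0.06, adjusted p = 7.95e-14). Trib3 (-2.45), Pck2 (-2.04) and Chac1 (-1.96) fell with it. Atf4 itself changed by -0.82, and Phgdh, the first enzyme of serine synthesis, was not called (-0.17, adjusted p = 0.192).

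The composite element read by CHOP, C/EBP and ATF4 proteins was searched in the same windows in the form TGATGNAA, on both strands. It was found in 1134 of 32851 promoters (3.45%), or 1056 of 27025 genes. Of this list it was in 3 of the 16 genes with an entry, which were Asns, Chac1 and Pck2, and of the retinoic acid pathway in 2 of 11, Crabp1 and Rbp4. The 30 bases around it in Asns are shown because this gene had the third largest fall of the list, with the element in capitals.
Asns, chr6:7693214-7693243, minus strand: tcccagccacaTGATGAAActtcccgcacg
The element starts 23 bases before the RefSeq start of the gene.

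Cholesterol genes were called lower in 12 of 20 members and higher in 1 (median -0.55), and lower in 19 after rescaling. Insig1 (-1.62), Pmvk (-1.20) and Fdps (-1.08) fell beyond 2-fold. Of 18 members of the glycolysis list 11 were called higher and 3 lower (median 0.60), where 45.1% of all genes were called higher. After rescaling 9 were called higher and 3 lower. After centring the median was 0.45, against 0.27 for all genes, and of the 13 members outside chromosomes 6, 8 and 12, 7 were called higher and 2 lower. The transporter Slc2a1 (GLUT1) was at 189.9, 198 and 210.2 TPM in the d0 libraries and 1276, 1339 and 1537 TPM in the d4 libraries. It gained 1185 TPM (2.79 ± 0.11, adjusted p = 1.82e-12), and Slc2a3 (GLUT3) went from 618 ± 16.4 TPM (SD, n = 3) to 1316 ± 12.3 TPM. The lactate exporter Slc16a3 rose by 2.55 and the liver-type phosphofructokinase Pfkl by 2.00, while the muscle-type Pfkm fell by 0.59. Hexokinases fell, Hk1 by 1.20 and Hk2 by 0.62. Pkm rose by 0.39, but not after rescaling (0.09, adjusted p = 0.26). Of 17 hypoxia response genes 9 were called higher and 2 lower, where 45.1% of all genes were called higher and 22.3% lower. The list median of 0.71 was 0.52 after centring. Pdk1 rose by 2.82, and Egln3 by 1.89 (1.42 after centring of chromosome 12). Vegfa, on chromosome 17, was not called without centring (0.20, adjusted p = 0.497).

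Cell cycle genes had 4 of 15 members called higher and 7 lower, where 45.1% of all genes were called higher and 22.3% lower. Ccnd2, cyclin D2, was at 0.905, 0.426 and 0.7 TPM in the d0 libraries and 147, 152 and 216 TPM in the d4 libraries. It rose by 6.67 ± 0.24 (adjusted p = 1.02e-12), the third largest rise. The other D cyclins fell, Ccnd1 by 0.72 and Ccnd3, on chromosome 17, by 0.76 (-0.44 after centring). The inhibitors also diverged, with Cdkn1c at 2.38, Cdkn1b at 1.14 and Cdkn1a (p21) at -1.30, all called. Of 14 targets of p53, 6 were called lower and 3 higher. Cdkn1a, Sesn2 (-1.03) and Mdm2 (-0.71) had the largest falls, and Pmaip1 (Noxa) rose by 1.66.

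Imprinted genes rose in 17 of 20 members and fell in 2, with a median of 2.75, and this group was spread over chromosomes 2, 6, 7, 10, 11, 12, 17 and 18. Meg3, a maternally expressed noncoding RNA, was at 7.38, 6.25 and 6.69 TPM in the d0 libraries and 85.5, 117 and 121 TPM in the d4 libraries and changed by 3.79 ± 0.20 (adjusted p = 1.02e-10). It lies on distal chromosome 12, and the value after centring was 3.32. Mest (4.15), Igf2, the fetal growth factor (4.00), and Nnat (3.96) had the largest rises. The neighbours H19 and Igf2 differed in size, at 2.07 and 4.00. Plagl1, which itself regulates imprinted genes, fell by 2.39 and Igf2r by 0.40, the latter not called after centring (-0.08, adjusted p = 0.432). The 13 members outside chromosomes 6, 8 and 12 had a median of 2.38, with 10 called higher and 2 lower. Allele-specific expression was not analysed here.

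Outside these lists, the largest rises were those of Arg1, arginase 1 (6.49, from 0.244 ± 0.0702 TPM (SD, n = 3) to 111 ± 1.74 TPM), Zfp703 (5.95) and the growth factor binding proteins Igfbp5 (5.84) and Igfbp4 (5.63). Zfp703 is on chromosome 8, and its centred change was 5.55. Prtg (protogenin), of early neural and mesodermal tissue, rose by 5.27, Fignl2 by 5.05, Cntfr, a receptor of the LIF cytokine family, by 4.97 and Ret by 4.74. The remaining large falls included Cidea, a lipid droplet protein (-4.14), the MHC class II chain H2-Eb1 (-3.96), Itpka (-3.92), Pla2g1b (-3.90), S1pr1 (-3.64), Ubd (-3.50), Smtnl1 (-3.43) and Cd3g (-3.40). The noncoding RNA 2310043M15Rik (-4.15), the pseudogene Gm4222 (-4.34) and Gm9376 (-3.95) complete the 15.
By amount of RNA, Mdk, the heparin-binding growth factor midkine, was at 281, 295 and 328 TPM in the d0 libraries and 2587, 2671 and 2919.96 TPM in the d4 libraries. It gained 2425 TPM (3.18 ± 0.06, adjusted p = 1.68e-15), and its processed pseudogene Mdk-ps1, whose reads may come from Mdk, gained 1693 TPM. Cd24a rose from 78.6 ± 9.71 TPM (SD, n = 3) to 674 ± 20.6 TPM. Mitochondrial mt-Cytb gained 3469 TPM but lost its call after rescaling (0.32, adjusted p = 0.0751), and mt-Co1, which gained 1832 TPM, was not called (adjusted p = 0.0576). Eef2 and Pcbp1 gained 1254 and 579.7 TPM, but neither was called after rescaling (adjusted p = 0.821 and 0.0265). The metallothioneins Mt2 and Mt1, which bind zinc, had the largest called losses, 4197 and 2971 TPM (-1.51 and -1.80). Gsta4 (-1.07), Ckb, brain creatine kinase (-2.67), and the pseudogene Gm6083 (-1.86) also lost 1515, 1104 and 865 TPM. Yam1, mt-Nd1 and Rpl8 lost 4126, 2983 and 1233 TPM without a call, with adjusted p = 0.105, 0.0387 and 0.0112.

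Zeb2 KO cells went through the same days, and the test was of the KO change minus the Ctrl change. It called 3957 genes (36.1%), 1495 with a more positive change in KO (13.6%) and 2462 with a more negative one (22.5%). After rescaling the counts were 2086 and 1927. Of the 2330 genes that rose beyond 2-fold in Ctrl, 1723 were also called higher in KO (73.9%), 42 were called lower there (1.80%), and of the 707 that fell, 547 were called lower in KO too (77.4%). Over all genes 35.8% were called higher in KO and 20.9% lower. These genes were chosen on the Ctrl values that the difference subtracts, so a smaller KO change is favoured by the choice and the counts are a description. Of the 2330, 1027 rose by less in KO or did not rise there (44.1%), 165 rose by more (7.08%) and 1138 were not called different (48.8%). For the 1790 of them outside chromosomes 6, 8 and 12 these counts were 686 (38.3%), 143 (7.99%) and 961 (53.7%). Of the 707 that fell beyond 2-fold, 221 fell by less in KO (31.3%), 87 by more (12.3%) and 399 were not called different (56.4%).
All 19 Hox genes changed by less in KO, where their median change was 0.06. Only 1 of them reached 5 TPM in 3 libraries outside Ctrl d4 and d6. The limit on TPM thus favoured a smaller KO change, and this count cannot be read as a result. In the retinoic acid pathway 8 of 14 members changed by less and 1 by more, the latter Rarg. Cyp26a1 was at 0.801 TPM in KO at d0 and 5.73 TPM at d4, a difference in change of -6.38 (adjusted p = 2.60e-11). Meox1 was at 0.917 TPM in KO at d4 (difference -6.81, adjusted p = 1.69e-10). For two-cell-like genes 9 of 10 members had a lower change in KO. Only 7 of the 10 reached 5 TPM in 3 libraries outside Ctrl d4 and d6, so the limit on TPM favoured this among the rest. For imprinted genes the change was lower in KO in 15 of 20. Of the 20, 18 reached the limit outside those groups, and 7 lie on chromosomes 6, 8 and 12. The median change of all genes of chromosome 12 was 0.19 in KO and 0.73 in Ctrl. Epiblast genes went the opposite way, with a higher change in KO for 11 of 16, among them Otx2 (4.50, adjusted p = 6.74e-10) and Dnmt3b (3.34, adjusted p = 7.56e-09). General pluripotency genes had a higher change in KO for 11 of 16, led by Tcea3 (2.14), with Pou5f1 at 1.19.
Of the 17 naive factors 5 were called different between genotypes and 12 were not, where 63.9% of all genes were not called. For Klf4 the difference was 0.23 ± 0.19 (adjusted p = 0.325), and for Nanog 0.28 ± 0.17 (adjusted p = 0.184). Fgf4 was the exception in size, at 237 TPM in KO at d4 (difference 2.44, adjusted p = 6.27e-08). Of 18 genes of the ATF4 list, 8 had a more positive change in KO and 1 a more negative one. On chromosome 8, whose genes were already high in KO at d0, the median change in KO was 0.13, against 0.66 in Ctrl.

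**Figure D5:**
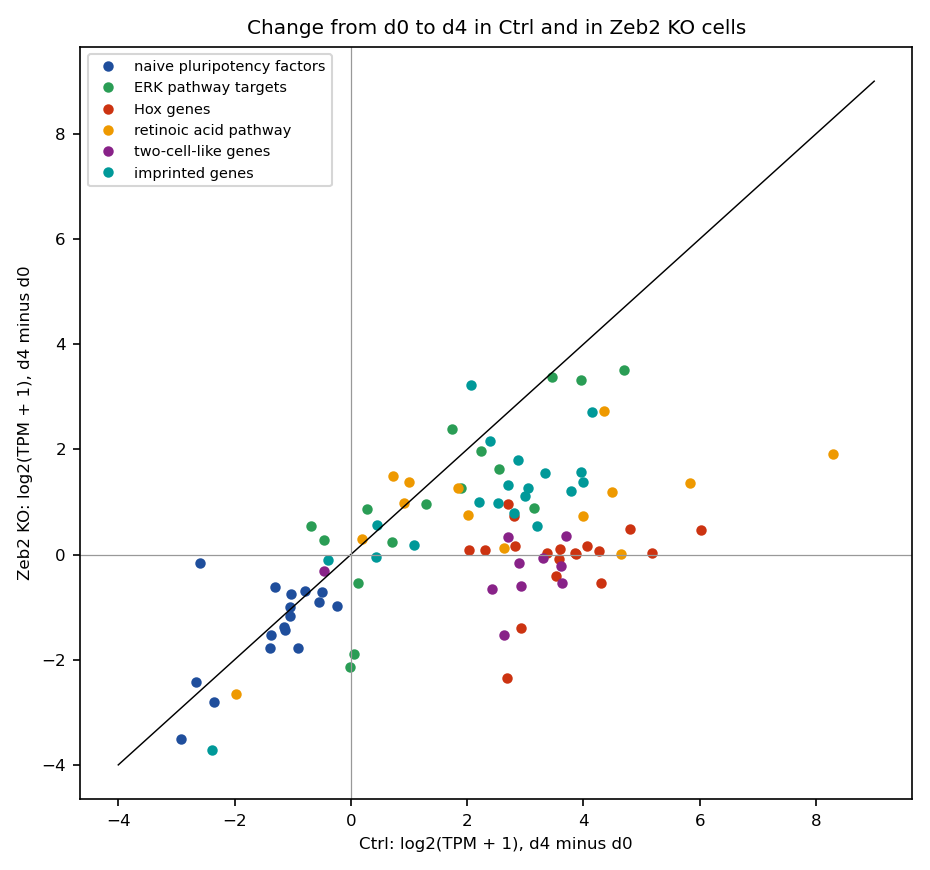
Change from d0 to d4 (log2(TPM + 1)) in Ctrl cells (horizontal) and in Zeb2 KO cells (vertical) for the members of 6 lists. The line marks equal changes. The 19 Hox genes lie near 0 on the KO axis (median 0.06) and at 2.04 to 6.01 on the Ctrl axis, while most naive factors and ERK targets lie closer to the line. Only 1 of the 19 reached 5 TPM in 3 libraries outside Ctrl d4 and d6, so the limit on TPM favoured this position.

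From d4 to d6, when Ctrl cells were in retinoic acid, the 2330 genes that had risen beyond 2-fold did not all continue. Of them 793 rose further (34.0%) and 439 fell back (18.8%), where 22.6% of all genes were called higher at d6 and 21.5% lower. These genes and the 707 below were chosen on the Ctrl d4 values that the later step subtracts. A return is thus favoured by the choice, and the counts are a description. The medians of chromosomes 6, 8 and 12 fell by 0.22, 0.44 and 0.42 over these days. Of the 1790 genes outside them, 716 rose further (40.0%) and 210 fell back (11.7%). Lefty1 fell from 454 to 82.998 TPM, and Spry4 from 37.4 to 5.55 TPM. Of the 707 that had fallen, 185 fell further (26.2%) and 160 came back (22.6%). Rhox5 was among the latter, at 493 TPM, and so was Mt1, at 2317 TPM. Sparc, a matrix protein of parietal endoderm, was at 422 TPM at d6. Hoxb1 was at 109.8 TPM and Cyp26a1 at 452 TPM.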

How the data were processed

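RNA-seq of 18 libraries was taken from the table the authors deposited. The authors aligned reads with TopHat2 2.0.13, counted them per gene with featureCounts 1.4.6 and deposited TPM values per library. The deposited table also holds 3 score columns with the authors' variance, standard deviation and variability of each gene over the samples, which were not used. Per the study's methods, the authors kept only genes that reached 5 TPM in 3 or more samples, a limit every gene of the table meets, and then dropped the 20% that varied least. Whole reads were recovered from the TPM values for 10965 of 10965 genes (within 1e-06, after 1 added read per gene), and 81 repeated rows of 11046 were left out. Differences of log2(TPM + 1) were tested with limma 3.58.1 in R 4.3.3, in 1 fit over the 6 groups of 3, with Benjamini-Hochberg adjustment over all genes. Replicates are independent experiments by the study's description of its results. The fit was tested on simulated reads, with the same spread set for all genes and no chromosome shift. It recovered 11% of 200 log2 changes of 0.5, 84.5% of those of 1 and 97% of those of 1.5, with at most 3 false calls. Positions came from GENCODE M21 for 10922 genes, and promoters from RefSeq. Genes were named by fixed rules (the 15 largest called rises and falls, the largest TPM gains and losses, genes the study names) and as members of the lists. The members and lists were chosen with earlier results of these data known. Strandedness of the counting is not given in the sources used here. Single values of some list members are not reported here.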

Additional observations from a re-analysis of the deposited data

Results flagged for a closer look

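The change from d0 to d4 differed between Zeb2 KO and Ctrl cells, by the limma interaction test, for 3957 genes. Among the 30 genes with the largest rises and falls in Ctrl, 25 were called different. A negative value means a more negative change in KO.

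Of the genes that rose in Ctrl, the KO change minus the Ctrl change was -6.38 for Cyp26a1, -6.81 for Meox1, -3.13 for Ccnd2, -7.02 for Arg1 and -5.54 for Hoxb1. It was -6.36 for Zfp703, -3.30 for Igfbp5, -4.47 for Stra6, -2.07 for Igfbp4 and -2.23 for Prtg. For Hoxb8 it was -5.16, for Fignl2 -2.01, for Cntfr -1.11, for Hoxa5 -4.32 and for Ret -3.77. These genes were chosen for their size in Ctrl, and the difference subtracts the same Ctrl values, so its sign is favoured by the choice.

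Of the genes that fell in Ctrl, the value was 2.36 for Tdh, 2.07 for Gm13929, 1.53 for Cidea, 1.46 for H2-Eb1, 1.56 for Itpka, 2.65 for Pla2g1b and 1.93 for Cth, which fell by less in KO. It was -1.95 for Gm9376, -1.09 for S1pr1 and -1.03 for Cd3g, which fell by more. Groups of 3 libraries were not searched for single outlying samples.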

How the results depend on the processing

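With 1 library left out, 6821 to 7037 genes were called, 2931 to 3063 beyond 2-fold, and 3400 to 3753 differed in change between KO and Ctrl. After median-ratio rescaling 3683 genes were called lower, 1166 of them beyond 2-fold. After quantile normalization 1219 were higher and 1233 lower beyond 2-fold. Beyond 2-fold, a pseudocount of 5 left 1812 genes (1335 higher) and a mean of at least 10 TPM left 1748 (1235 higher), of 8194 tested. The excess over all genes under quantile normalization was 0.30 for chromosome 6, 0.46 for chromosome 8 and 0.50 for chromosome 12. It ran from 0.32 to 0.35 with 1 library left out for chromosome 6. With voom on recovered reads 7481 genes were called. A replicate block gave 7294 calls, 3035 beyond 2-fold and 3806 between genotypes. Libraries of the same number had deviations correlated at 0.19, 0.16 and 0.08, above the -0.22 to 0.05 of unlike numbers. The main fit did not take the numbers as pairs, and the replicate block above gives the counts with them in the fit. Leaving out chromosomes 6, 8 and 12, a setting chosen after seeing the data, left 6109 calls of 9297 genes. Genes whose sign turned were Afp (-0.15 with quantile normalization), Apoa1 (with 1 library left out -0.17 to 0.027, turned at 0.00324 and 0.027), Dnmt1 (-0.20 with median-ratio rescaling, -0.020 with voom on recovered reads), Dnmt3b (0.035 with chromosome centring, with 1 library left out -0.14 to 0.100, turned at 0.037 and 0.100), Egr1 (0.046 with pseudocount 0.1, with 1 library left out -0.86 to 0.66, turned at 0.18 and 0.66 and 0.15), Eomes (with 1 library left out -0.34 to 0.037, turned at 0.015 and 0.037), Fos (-0.000387 with pseudocount 5, -0.20 with median-ratio rescaling, -0.60 with quantile normalization, -0.034 with voom on recovered reads, -0.42 with chromosome centring, with 1 library left out -0.42 to 0.31, turned at -0.42), Gata4 (-0.034 with quantile normalization), Ier2 (-0.17 with median-ratio rescaling, -0.28 with chromosome centring, with 1 library left out -0.00135 to 0.23, turned at -0.00135), Krt7 (-0.13 with quantile normalization), Lefty2 (with 1 library left out -0.21 to 0.054, turned at 0.024 and 0.054), Otx2 (-0.17 with quantile normalization), Pou3f1 (-0.029 with quantile normalization), Rdh10 (-0.064 with median-ratio rescaling, -0.56 with quantile normalization), Vegfa (-0.091 with median-ratio rescaling, -0.12 with quantile normalization), Zeb1 (-0.15 with quantile normalization). The cause was not tested. Genes with a few reads per library are limited by depth.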
